A study of Mus musculus with 40 samples.

Results

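The arrays described here measured gene expression in the injured hemisphere of postnatal day 9 C57/Bl6 mouse brains after lipopolysaccharide (LPS) and hypoxia-ischaemia (HI), and in brains of mice given vehicle alone. They were chosen by their titles, as the 5 arrays of the LPS/HI injured group and the 5 arrays of the Vehicle group, and make up 10 of the 40 arrays of the series. In the LPS/HI injured group, LPS came 4 h after vehicle and HI 14 h after LPS, and 6 h later the left hemisphere was removed. In the Vehicle group the brain was taken 10 h after vehicle, with no LPS and no HI, and the labels call it uninjured brain without naming a hemisphere. LPS, HI, the tissue taken and the time since vehicle therefore differ together, and their parts in a difference between these groups cannot be told apart. For comparison, 5 arrays of the uninjured hemisphere of the LPS/HI group were used, taken at the same times, and so were 5 arrays of an injured LPS/HI hemisphere given the synthetic peptide IDR-1018 in place of vehicle and 5 of brains given IDR-1018 alone 10 h before removal. For a few genes the levels in 5 arrays of uninjured brains given LPS alone, taken 6 h after it, were set beside them. The labels do not say that the arrays of a group came from separate animals, so p-values measure only the spread between these arrays, which may be technical in part.

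LPS is a component of the outer membrane of Gram-negative bacteria. It is bound by LBP and CD14 and sensed by TLR4, which signals through MyD88 to the transcription factor NF-kB and through a separate adaptor to interferon. HI, the loss of blood flow and oxygen, starves tissue of energy, and cells respond with immediate early genes, heat shock proteins and a slowing of protein synthesis called the integrated stress response. In newborn rodents, LPS given before HI is known to make the brain more vulnerable, and microglia, astrocytes and entering blood cells release chemokines and cytokines into the injured tissue.

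Signals were deposited as log2 values after RMA, a method that corrects background, normalizes arrays to each other and summarizes the probes of a probe set. Of 34760 probe sets, 21640 were annotated to a single gene symbol, and 19937 genes remained after the probe set with the highest mean was taken for each. Array medians lay between 6.99 and 7.13, and the number of arrays limits the precision. Correlations over genes were 0.993 to 0.997 within the injured group, 0.9945 to 0.9972 within the Vehicle group and 0.9891 to 0.9943 between them. The labels give no sex, and 4 of 5 injured arrays against 2 of 5 Vehicle arrays had high Xist, the RNA of the inactive X chromosome. Arrays with and without high Xist occur in both groups, so neither group came from 1 animal alone. Injured replicate 3 stood apart from the rest in carrying both Xist, at 11.23, and Y-linked genes, at a mean of 8.01, where each other injured array carried one or the other. Without that array, 1793 genes passed the test described next, against 1663 with it. As a check of the tissue, markers of cortical and hippocampal neurons averaged 9.44 to 9.55 in injured arrays and 9.72 to 9.81 in Vehicle arrays, and markers of astrocytes averaged 10.06 to 10.25 in injured arrays and 9.98 to 10.16 in Vehicle arrays, all above the array medians.

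In the injured hemisphere, chemokines, acute phase proteins, interferon-induced genes, complement and other myeloid genes were higher than in Vehicle brains, together with stress genes of the AP-1, heat shock and DNA damage families. Genes of cholesterol synthesis, of neurotransmitter receptors and of cortical neurons were lower, by smaller amounts. The steepest change was that of Ccl3, the chemokine MIP-1 alpha, at 12.1-fold. Across all genes, limma (Benjamini-Hochberg adjusted p under 0.05) called 1663 of 19937 genes (8.34%). In the injured hemisphere 887 of them were higher (4.45%) and 776 were lower (3.89%). The split depended on the scaling and the fit, with 743 higher and 899 lower when each array was centred on its median, and 1122 higher and 1168 lower with the replicate number as a block. The called changes were small on the whole, with a median log2 fold change of 0.38 among the higher genes and -0.32 among the lower ones. Changes over 1.5-fold were found for 203 higher genes (1.02%) and 26 lower genes (0.130%), and changes over 2-fold for 53 higher genes and 0 lower genes. The count of called genes fell to 964, 1088 and 1034 without Vehicle replicate 1, 3 and 4, and to 917 with the level of Xist as a covariate, while the count over 1.5-fold stayed between 211 and 258 whichever array was left out. The genes described below as higher or lower were called in every fit that left out 1 array, unless stated otherwise.

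**Figure D1:**
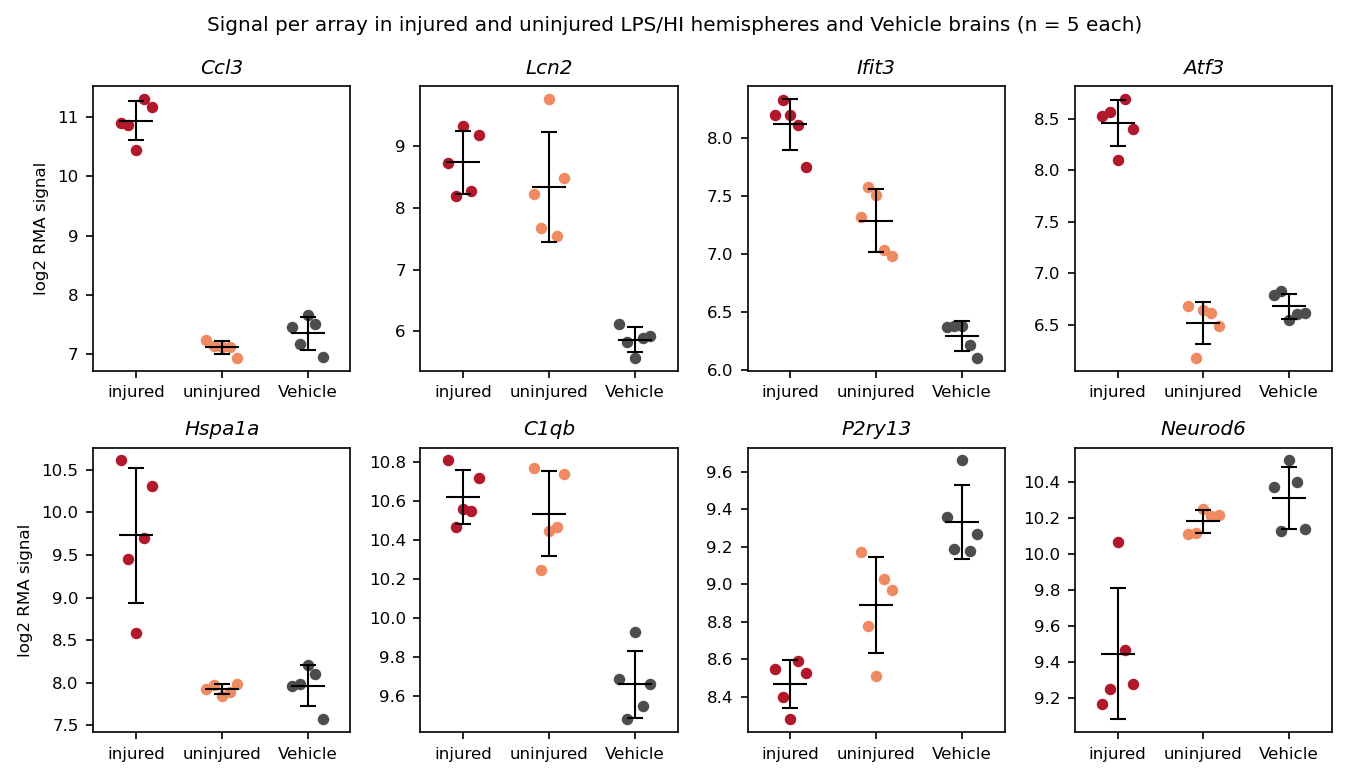
Log2 RMA signal (vertical axis) of 8 genes in each array of the injured and uninjured LPS/HI hemispheres and of Vehicle brains (horizontal axis, 5 arrays each); points are arrays, the long bar is the mean and the whiskers are 1 SD. Ccl3, Atf3 and Hspa1a are high in the injured hemisphere alone of these 3 groups, Lcn2 and C1qb are high in both hemispheres, Ifit3 takes a place between in the uninjured hemisphere, and P2ry13 and Neurod6 are lowest in the injured hemisphere.

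The gene with the steepest change was a chemokine. Of 31 chemokine and cytokine genes measured, 16 were higher in the injured hemisphere and 14 of them were called in every fit that left out 1 array; the list's median log2 fold change was 0.34, against -0.01 over all genes. Ccl3, which attracts monocytes and T cells, had log2 signals of 10.90, 10.87, 10.45, 11.31 and 11.17 in injured arrays, against 7.46, 7.17, 7.65, 7.51 and 6.95 in Vehicle arrays. The groups were far apart, and the lowest injured array was well above the highest Vehicle array. The highest and lowest genes were picked only among called genes whose groups did not overlap. For Ccl3, and below for Il1a, Ifit3, Lcn2, C3ar1, Atf3, Hspa1a and Neurod6, the lack of overlap is therefore no separate evidence. Other genes named from the lists were picked as called genes with large changes in these same arrays. A lack of overlap in them is no separate evidence either. Over all genes, the groups did not overlap for 1743 of 19937 (8.74%). The log2 fold change was 3.59 ± 0.15 (SE, adjusted p = 2.44e-08). Ccl2, the main attractant of CCR2-bearing monocytes, had signals of 8.09, 8.04, 8.12, 7.80 and 7.97 in injured arrays, against 6.02, 6.38, 5.93, 6.24 and 6.10 in Vehicle arrays, a 3.65-fold difference (adjusted p = 3.86e-08). Its relatives Ccl12 and Ccl7, also ligands of CCR2, were higher by 1.75 ± 0.15 and 0.93 ± 0.11 on the log2 scale. Ccl9 and Ccl6, rodent chemokines that bind CCR1, were 2.83-fold and 2.02-fold higher.

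Among the cytokines, Il1a, the alarm cytokine interleukin-1 alpha, had signals of 6.74, 7.45, 6.78, 6.60 and 6.97 in injured arrays, against 5.27, 5.29, 5.27, 5.32 and 5.10 in Vehicle arrays. No injured array overlapped the Vehicle arrays, and the difference was 1.65 ± 0.13 on the log2 scale (adjusted p = 2.08e-06). Of 27 cytokine and chemokine receptors, 9 were higher, 6 of them in every fit that left out 1 array. Osmr, the receptor of oncostatin M, led them with 8.91 ± 0.23 in injured arrays and 7.62 ± 0.09 in Vehicle arrays (SD, n = 5 each), which is a log2 fold change of 1.28 ± 0.10 (SE). Tnfrsf12a, the receptor of the cytokine TWEAK, and Tnfrsf1a, the main receptor of tumour necrosis factor, were higher by 0.82 ± 0.10 and 0.60 ± 0.11. The interleukin receptor chains Il4ra and Il6ra followed at 0.48 ± 0.08 and 0.39 ± 0.07.

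The receptor complex for LPS itself was among the changed genes. Of 17 LPS receptor and Toll-like receptor genes, 8 were higher, and all 8 were called in every fit that left out 1 array. Cd14, the co-receptor that passes LPS on to TLR4, had signals of 7.74, 7.34, 7.30, 7.59 and 8.14 in injured arrays, against 6.37, 6.26, 6.05, 6.12 and 6.30 in Vehicle arrays. The groups did not overlap, and the difference was 2.64-fold (adjusted p = 1.92e-05). Tlr1 and Tlr2, which together sense bacterial lipoproteins, were higher by 0.79 ± 0.08 and 0.75 ± 0.07 on the log2 scale, and Cd180, a TLR4 relative, by 0.73 ± 0.10. The change in Tlr4 was smaller, at 0.32 ± 0.07 (adjusted p = 0.0078), and so were those in the adaptor Myd88, at 0.41 ± 0.09, and the nucleic acid sensor Tlr7, at 0.41 ± 0.09. The signal of Tlr4 was dim, with means of 5.57 in injured and 5.25 in Vehicle arrays, below all array medians. Among genes with a mean signal of at least 6, 7 of the list were higher. Lbp, the serum protein that carries LPS to CD14, was higher by 0.56 ± 0.09. Of 15 NF-kB subunits and feedback genes, 7 were higher, a count that fell to 4 without Vehicle replicate 1. Nfkbiz, an inducible nuclear co-factor of NF-kB, changed by 0.41 ± 0.08, and Irak3, a brake on Toll-like receptor signalling, by 0.37 ± 0.07. In the STAT3 group, which lies downstream of the oncostatin M and interleukin-6 receptors, 4 of 13 genes were higher, or 2 without Vehicle replicate 1, 3 or 4, and the median was 0.05. Stat3 was higher by 0.55 ± 0.07 and the transcription factor Cebpd by 0.62 ± 0.09.

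Promoter sequences were set beside 7 lists, each searched for a well-known binding motif of factors tied to it, such as NF-kB or interferon-activated factors. The sequences come from RefSeq on build GRCm38.p6, and 15613 of the 19937 genes had at least 1 window of the 250 bases before a start site. A gene with several start sites was counted once, as holding a motif if any of its windows did. The interferon-stimulated response element was searched as 2 copies of TTTC with 2 bases of any kind between them, on both strands, with overlapping matches counted as positions of the same promoter. It was held by 12 of the 24 genes of the interferon list with a window (50.0%), against 3.40% of all genes with a window. The NF-kB consensus, searched under the usual 10-base form on both strands, was held by 6 of 22 genes of the chemokine list (27.3%) and 7 of 13 of the NF-kB list (53.8%), against 5.05% of all genes with a window. The heat shock element, searched as TTC, GAA and TTC with 2 bases of any kind between neighbours, was held by 2 of 17 heat shock genes (11.8%), against 0.442% of all. The cAMP response element, TGACG directly followed by TCA, was held by 1 of 28 genes of integrated and unfolded protein stress (3.57%) and 3 of 24 immediate early genes (12.5%), against 2.33% of all. The sterol regulatory element, ATCAC directly followed by CCCAC, was held by 0 of 17 genes of cholesterol synthesis, against 0.064% of all. The segments of 120 bases shown are from 4 of the 12 interferon genes and 2 of the 6 chemokine genes with a match, picked as examples after their values were seen, with other genes that hold a match, such as Trim30a, left out. They run 5′ to 3′ on the gene's strand, with the matches in capitals, and lie at chr19:34583335-34583454 on the plus strand for Ifit3, chr19:34640740-34640859 on the plus strand for Ifit1, chr12:26456508-26456627 on the minus strand for Rsad2, chr11:48871421-48871540 on the minus strand for Irgm1, chr5:92348956-92349075 on the minus strand for Cxcl10 and chr11:83578637-83578756 on the minus strand for Ccl9.
Ifit3: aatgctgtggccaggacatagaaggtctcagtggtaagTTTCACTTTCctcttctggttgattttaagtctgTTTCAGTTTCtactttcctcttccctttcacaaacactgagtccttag
Ifit1: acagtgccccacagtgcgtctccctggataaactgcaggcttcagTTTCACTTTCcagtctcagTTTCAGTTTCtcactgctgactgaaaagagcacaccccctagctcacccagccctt
Rsad2: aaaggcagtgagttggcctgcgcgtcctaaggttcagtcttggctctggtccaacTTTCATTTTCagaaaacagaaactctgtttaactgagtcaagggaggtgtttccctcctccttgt
Irgm1: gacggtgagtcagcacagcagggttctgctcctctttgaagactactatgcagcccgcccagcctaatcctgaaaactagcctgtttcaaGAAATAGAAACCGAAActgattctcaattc
Cxcl10: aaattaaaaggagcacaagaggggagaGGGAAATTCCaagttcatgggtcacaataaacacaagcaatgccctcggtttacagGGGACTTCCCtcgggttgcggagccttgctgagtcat
Ccl9: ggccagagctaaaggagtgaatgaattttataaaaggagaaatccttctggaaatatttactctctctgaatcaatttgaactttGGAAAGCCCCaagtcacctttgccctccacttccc
A match describes the letters in the window and is not a measured binding site. The shares count list members whether called or not, so they describe the lists and are not a result of these arrays.

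Interferon-induced genes were among the lists with the largest shares of changed members. Of 33 measured, 24 were higher and 0 lower, 20 of them in every fit that left out 1 array, and the median log2 fold change was 0.59. Ifit3, a cytoplasmic antiviral protein, had signals of 8.20, 8.33, 8.20, 8.11 and 7.75 in injured arrays, against 6.37, 6.38, 6.38, 6.21 and 6.10 in Vehicle arrays. Every injured array was above every Vehicle array, by a difference of 3.56-fold (adjusted p = 1.33e-07), and near-identical neighbouring copies of this gene may share its probes. Ifit1, its neighbour on chromosome 19, was higher by 1.75 ± 0.14 on the log2 scale. Irgm1, an interferon-induced GTPase that acts against intracellular bacteria, had signals of 8.70, 8.24, 8.52, 8.09 and 8.16 in injured arrays, against 6.66, 6.87, 6.79, 6.78 and 6.81 in Vehicle arrays (log2 fold change 1.56 ± 0.10, adjusted p = 7.19e-07). The membrane protein Ifitm3, which blocks virus entry, was higher by 1.70 ± 0.17, the chaperone Rtp4 by 1.59 ± 0.09, Trim30a by 1.34 ± 0.11, the radical enzyme Rsad2 by 1.27 ± 0.12 and the deISGylase Usp18 by 1.23 ± 0.12. Cxcl10, a chemokine induced by interferon, changed by 1.20 ± 0.07. Ifi207, a nuclear protein of the PYHIN family whose members are near-identical in sequence, was 4.23-fold higher (adjusted p = 6.33e-07).

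Antigen presentation genes followed at smaller sizes. Of 11 genes of MHC class I loading and the immunoproteasome, 6 were higher, and 3 were called without injured replicate 1, injured replicate 5, Vehicle replicate 1 or Vehicle replicate 3. B2m, the light chain of MHC class I, was higher by 0.67 ± 0.09, and Tap1, a part of the peptide transporter, by 0.54 ± 0.08. H2-Q4, a class I heavy chain with close paralogs, changed by 1.04 ± 0.08.

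Acute phase proteins held the second steepest gene of all. Lcn2, a siderophore-binding protein secreted by astrocytes and neutrophils, had signals of 8.73, 8.19, 9.33, 8.28 and 9.18 in injured arrays, against 6.12, 5.83, 5.57, 5.90 and 5.92 in Vehicle arrays. The injured arrays varied more than the Vehicle arrays and were all above them, by a difference of 7.33-fold (log2 fold change 2.87 ± 0.19, adjusted p = 7.74e-07). Of 22 acute phase genes, 8 were higher and 7 were called in every fit that left out 1 array. Saa3, a serum amyloid A made outside the liver, was higher by 1.52 ± 0.18 on the log2 scale, Serpina3n, a protease inhibitor of reactive astrocytes, by 1.19 ± 0.13, and A2m, a broad protease trap, by 1.01 ± 0.11. Ptx3, a soluble pattern recognition protein, changed by 0.59 ± 0.07 and ceruloplasmin, Cp, by 0.45 ± 0.08.

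Complement and other myeloid genes were higher in most of their members. Of 16 complement genes, 11 were higher, 10 of them in every fit that left out 1 array. C3ar1, the receptor of the anaphylatoxin C3a, had signals of 9.19, 9.31, 9.06, 9.34 and 8.98 in injured arrays, against 7.55, 7.59, 7.70, 7.57 and 7.18 in Vehicle arrays, with no overlap (3.15-fold, adjusted p = 2.41e-07). The C1q chains C1qb, C1qa and C1qc, which start the classical pathway, were higher by 0.96 ± 0.09, 0.72 ± 0.11 and 0.71 ± 0.11 on the log2 scale, C5ar1 by 0.98 ± 0.07, and C4b, a gene with a close paralog, by 0.60 ± 0.07. Of 35 genes of myeloid immunoreceptors, lysosome and adhesion, 25 were higher and 0 lower, with a median of 0.54. Lilrb4a, an inhibitory receptor with close relatives, was 3.62-fold higher, the scavenger receptor Msr1 changed by 1.33 ± 0.09, and the activating Fc receptor chains Fcgr4 and Fcgr3 by 1.15 ± 0.09 and 0.84 ± 0.08. Gpr84, a receptor for medium-chain fatty acids, was 3.12-fold higher (adjusted p = 2.52e-08). The NADPH oxidase subunit Cybb, the protease Ctss and the surface protein Cd52 were higher by 0.99 ± 0.12, 0.88 ± 0.10 and 1.08 ± 0.13.

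Microglial genes did not move together. Of 16 microglia markers, 3 were higher and 3 lower. P2ry13 and P2ry12, nucleotide receptors of surveying microglia, were lower. P2ry13 had signals of 8.55, 8.40, 8.28, 8.59 and 8.53 in injured arrays, against 9.36, 9.19, 9.66, 9.18 and 9.27 in Vehicle arrays, a log2 fold change of -0.86 ± 0.09 (adjusted p = 6.27e-05). P2ry12 had 7.46 ± 0.15 in injured arrays and 8.07 ± 0.16 in Vehicle arrays (SD, n = 5 each), with no overlap, and changed by -0.61 ± 0.09. The fructose transporter Slc2a5, also restricted to microglia within the brain, changed by -0.46 ± 0.07, while Itgam, the integrin chain CD11b shared with blood myeloid cells, was higher by 0.89 ± 0.09. The count of 3 higher markers fell to 1 without injured replicate 1, 2 or 5 or Vehicle replicate 1, 2 or 4, with Itgam called in each.

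Markers of blood leukocytes were read beside these groups because the tissue was not sorted, and fewer cells of a type cannot be told apart from less RNA per cell. Of 15 neutrophil markers, 1 was higher with all arrays, 0 without Vehicle replicate 1 and 2 without Vehicle replicate 2 or with the block, and the list averaged 5.45 to 5.56 in injured arrays and 5.21 to 5.50 in Vehicle arrays. Of 13 monocyte and macrophage markers, 4 were higher and 1 lower (2 lower with the block), and the higher count fell to 2, 1 and 2 without injured replicate 1, Vehicle replicate 3 and Vehicle replicate 4. Their list mean was 6.36 to 6.48 in injured arrays and 6.23 to 6.34 in Vehicle arrays, and Ms4a6c, the marker with the steepest change, was higher by 1.19 ± 0.11. Of 15 lymphocyte markers, 0 were called by limma and 1 had an unadjusted p under 0.05, against 4272 of 19937 over all genes. The lymphocyte list averaged 5.18 to 5.51 in injured arrays and 5.19 to 5.41 in Vehicle arrays, and like the neutrophil list it lay below all array medians. The part of entering leukocytes in the myeloid and chemokine changes was not tested.

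Reactive astrocyte genes were also higher as a group. Of 33 measured, 23 were higher and 0 lower, 19 of them in every fit that left out 1 array, with a median of 0.55; the list shares Lcn2, Serpina3n, Cd14, Cxcl10 and Osmr with lists described above. Emp1, an epithelial membrane protein, had signals of 9.60, 9.55, 9.15, 9.51 and 9.37 in injured arrays, against 8.00, 7.60, 8.30, 8.01 and 7.70 in Vehicle arrays. No arrays overlapped, and the difference was 2.86-fold (adjusted p = 4.08e-06). Timp1, an inhibitor of matrix metalloproteinases, was higher by 1.29 ± 0.13 on the log2 scale, and Gfap, the intermediate filament of astrocytes, by 0.63 ± 0.10. Of 15 astrocyte markers, 3 were higher, 2 of them in every fit that left out 1 array, and 1 was lower, with a median of 0.10. The higher ones included Gfap and Gjb6, with Gjb6 at 0.33 ± 0.07. The lower one was Dio2, the enzyme that activates thyroid hormone, at -0.60 ± 0.10. Vessel genes changed in few members. Of 26 genes of endothelium and the blood-brain barrier, 5 were higher, or 3 without Vehicle replicate 4, and 1 was lower, or 2 with the block or without Vehicle replicate 2, with a median of 0.03. Of 20 genes of activated endothelium and angiogenic signals, 5 were higher, 3 without injured replicate 2 or Vehicle replicate 1, 3 or 4 and 8 with the block, while 2 were lower, 1 without Vehicle replicate 3 or 4, with a median of 0.18. Vwf, the clotting factor stored by endothelium, was higher by 0.76 ± 0.09, the adhesion molecule Icam1 by 0.67 ± 0.09 and the glucose transporter Slc2a1 by 0.57 ± 0.11, while Slco1c1, the thyroid hormone transporter of the blood-brain barrier, changed by -0.38 ± 0.07.

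**Figure D2:**
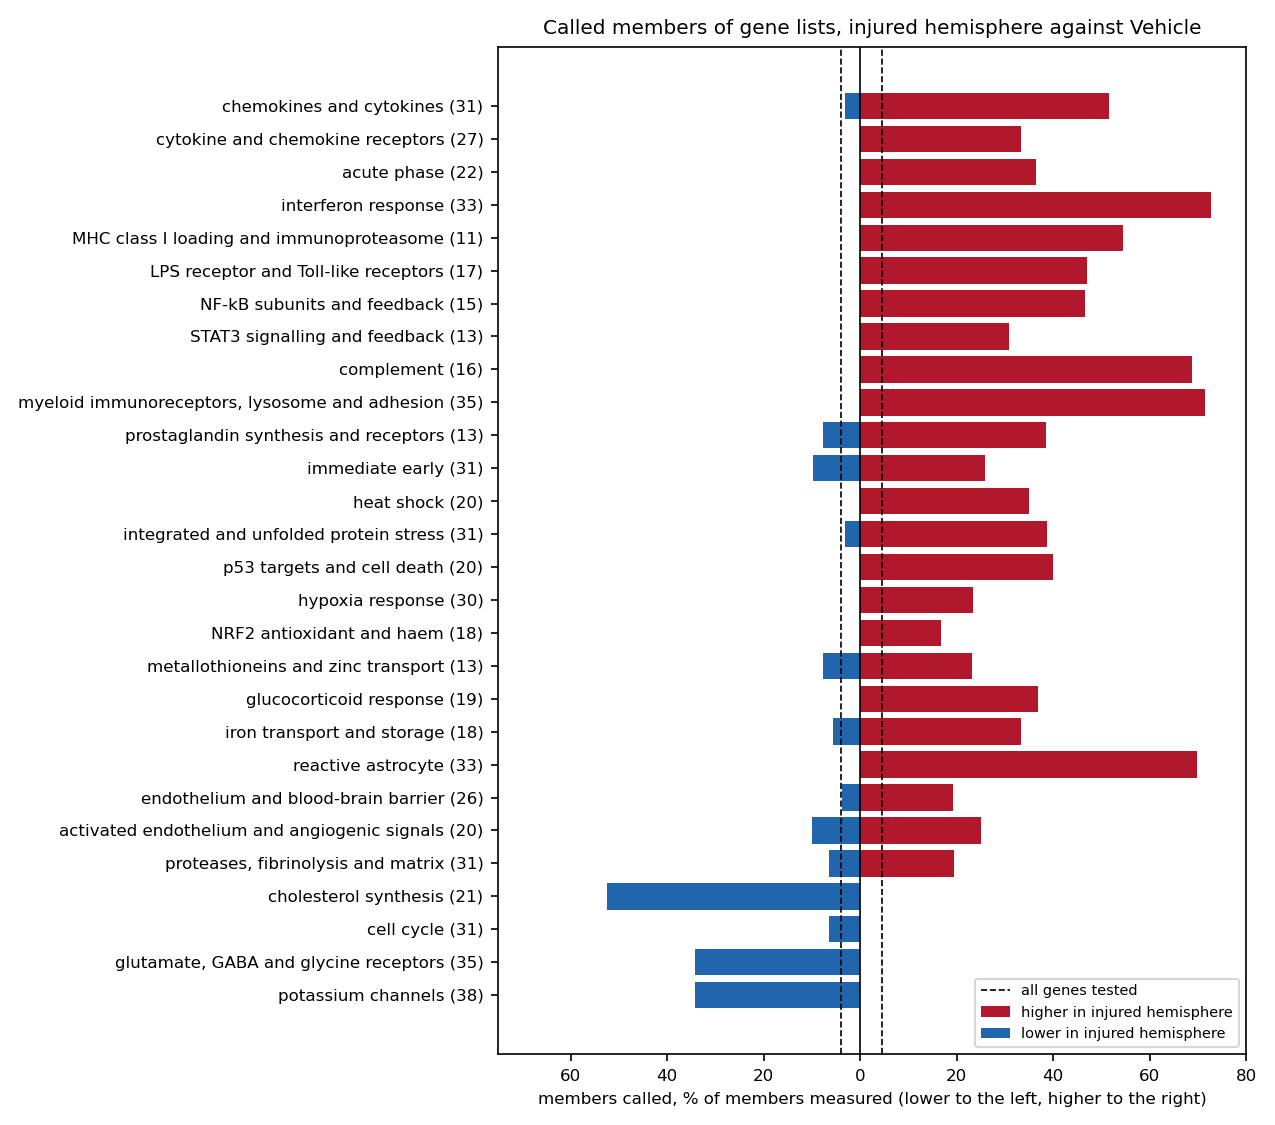
Share of measured members (horizontal axis, percent; the number measured in brackets) of each gene list called higher, to the right, or lower, to the left, in the injured hemisphere against Vehicle brains; dashed lines are the shares over all 19937 genes, 4.45% higher and 3.89% lower. Interferon, myeloid, reactive astrocyte and complement lists reach farthest to the right, and cholesterol synthesis reaches farthest to the left.

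Stress genes were led by Atf3, a transcription factor induced by the integrated stress response. It had signals of 8.52, 8.56, 8.10, 8.69 and 8.40 in injured arrays, against 6.79, 6.83, 6.55, 6.61 and 6.62 in Vehicle arrays, a difference of 3.42-fold with no overlap (adjusted p = 1.52e-07). Of 31 genes of integrated and unfolded protein stress, 12 were higher, 9 of them in every fit that left out 1 array. Atf4, the central factor of this response, changed by 0.59 ± 0.06, and its known targets Eif4ebp1, Chac1, Mthfd2 and Ddit3 by 0.65 ± 0.06, 0.54 ± 0.10, 0.49 ± 0.07 and 0.43 ± 0.09. Ppp1r15a, which ends the translation block, changed by 0.46 ± 0.07.

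Hspa1a, the inducible chaperone HSP70, had the widest spread of the steep genes, with signals of 10.61, 9.45, 8.58, 9.70 and 10.31 in injured arrays, against 7.96, 7.99, 8.21, 8.10 and 7.57 in Vehicle arrays. Its lowest injured array was replicate 3, the array with both Xist and Y-linked RNA, and it was still above every Vehicle array. The log2 fold change was 1.76 ± 0.28 (adjusted p = 0.00154) with that array and 2.05 without it, and Hspa1a has a near-identical copy next to it that may share its probes. Of 20 heat shock genes, 7 were higher, 5 of them in every fit that left out 1 array, among them the small chaperones Hspb8 and Hspb1, at 0.85 ± 0.09 and 0.81 ± 0.16, and the co-chaperone Bag3, at 0.60 ± 0.10.

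Immediate early genes split by direction, with 8 of 31 higher and 3 lower, or 14 higher and 5 lower with the replicate number as a block. Fos had signals of 7.11, 7.53, 7.54, 7.52 and 8.19 in injured arrays, against 6.50, 6.88, 6.39, 6.69 and 6.76 in Vehicle arrays, a difference of 1.91-fold whose groups did not overlap (adjusted p = 0.00195). Its partner Fosb was higher by 0.91 ± 0.15 on the log2 scale, Jun by 0.46 ± 0.07, the small GTPase Gem by 1.09 ± 0.14 and Zfp36, which destabilizes cytokine mRNAs, by 0.75 ± 0.10. Nr4a3, a nuclear receptor induced by neuronal activity, was lower, at -0.47 ± 0.08. Of 20 genes of p53 targets and cell death, 8 were higher and 6 were called in every fit that left out 1 array. Gadd45b, a stress sensor of the DNA damage response, had signals of 9.53, 9.45, 8.70, 9.13 and 9.54 in injured arrays, against 7.72, 7.70, 7.70, 7.55 and 7.99 in Vehicle arrays (2.90-fold, adjusted p = 1.49e-05). Its relative Gadd45g changed by 0.87 ± 0.15, the pro-apoptotic Bcl2l11 by 0.46 ± 0.07 and the death receptor Fas by 0.46 ± 0.09.

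Targets of hypoxia signalling, antioxidant genes and metal-binding proteins changed in fewer members. Of 30 hypoxia genes, 7 were higher, 6 of them in every fit that left out 1 array, led by the vasodilator peptide Adm at 0.73 ± 0.16 and the lipid droplet protein Plin2 at 0.72 ± 0.11, with hexokinase Hk2 at 0.31 ± 0.06. Of 18 NRF2 and haem genes, 3 were higher. Hmox1, which breaks down haem, was 2.48-fold higher, with signals of 8.74, 8.36, 8.30, 8.54 and 8.86 in injured arrays, against 7.18, 7.15, 7.49, 7.11 and 7.31 in Vehicle arrays. The metallothioneins Mt2 and Mt1, which bind zinc and copper, were higher by 1.22 ± 0.08 and 1.15 ± 0.12. Slc40a1, the iron exporter ferroportin, was among the 15 lowest genes, at 7.70 ± 0.09 in injured arrays and 8.34 ± 0.13 in Vehicle arrays (SD, n = 5 each), a change of -0.64 ± 0.07 (SE, adjusted p = 0.000122). Of 13 genes of prostaglandin synthesis and receptors, 5 were higher, or 3 without injured replicate 1 or Vehicle replicate 1, 3 or 4, and the median was 0.01. The receptor Ptger3 was lower with all arrays, at -0.34 ± 0.09, but not in every fit that left out 1 array. Ptgs2, the inducible cyclooxygenase, and Ptges, which makes prostaglandin E from its product, were higher by 0.77 ± 0.11 and 0.37 ± 0.07.

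The lower genes changed less than the higher ones. The lowest was Neurod6, a transcription factor of cortical and hippocampal excitatory neurons, with signals of 9.17, 9.25, 10.07, 9.47 and 9.28 in injured arrays, against 10.37, 10.13, 10.52, 10.40 and 10.14 in Vehicle arrays. Injured replicate 3 lay just below the Vehicle range and the other injured arrays far below it. The log2 fold change of Neurod6 was -0.86 ± 0.14 (adjusted p = 0.00207) with that array and -1.02 without it. The list of cortical and hippocampal neuron markers was chosen with earlier results of these data known. Its members Neurod6, Hs3st5 and Pcdh20 were themselves among the 15 lowest genes. Of its 23 markers, 9 were lower and 1 higher, 7 of the lower ones in every fit that left out 1 array, and the list's median was -0.23. They included Hs3st5, a heparan sulphate sulphotransferase, at -0.80 ± 0.09, the protocadherin Pcdh20 at -0.66 ± 0.08, the secreted protein Tafa1 at -0.60 ± 0.08, the layer 5 factor Fezf2 at -0.45 ± 0.07, the layer 4 factor Rorb at -0.44 ± 0.07 and the serotonin receptor Htr2a at -0.43 ± 0.07. Of 12 markers of striatal neurons 1 was lower, 2 without injured replicate 4 or 5 or Vehicle replicate 5 and 3 with the block. Of 15 interneuron markers 0 were called by limma, with 5 at an unadjusted p under 0.05 and a list median of -0.15, and 1 was lower with the block, Dlx2 (adjusted p = 0.0252). An unadjusted p under 0.05 was found for 4272 of all 19937 genes, and 1168 of all 19937 were lower with the block.

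Receptor and channel genes of neurons were lower in part. Of 35 glutamate, GABA and glycine receptor genes, 12 were lower and 0 higher, 8 of them in every fit that left out 1 array, with a median of -0.17. The metabotropic glutamate receptors Grm2, Grm3, Grm5 and Grm7 changed by -0.46 ± 0.07, -0.36 ± 0.07, -0.35 ± 0.07 and -0.34 ± 0.06, and the NMDA receptor subunit Grin3a by -0.45 ± 0.07. Of 38 potassium channel genes, 13 were lower, and the count was 8 without injured replicate 1 and 7, 6 and 5 without Vehicle replicate 1, 2 and 3. Kcnv1, a silent subunit that modifies other channels, had signals of 9.77, 9.86, 9.79, 10.09 and 9.77 in injured arrays, against 10.47, 10.32, 10.63, 10.35 and 10.46 in Vehicle arrays, with no overlap (log2 fold change -0.59 ± 0.08, adjusted p = 0.000376). Kcnb2, Kcnh5 and Kcnq5 changed by -0.48 ± 0.07, -0.47 ± 0.06 and -0.43 ± 0.08.

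Cholesterol synthesis was the metabolic list with the largest share of lower genes. Of 21 measured, 11 were lower and 0 higher, 9 of them in every fit that left out 1 array, and the median was -0.31. Nsdhl, which removes methyl groups from sterol intermediates, had signals of 9.72, 9.82, 9.82, 9.92 and 9.66 in injured arrays, against 10.48, 10.31, 10.48, 10.49 and 10.23 in Vehicle arrays. The groups did not overlap, and the change was -0.61 ± 0.07 (adjusted p = 0.00014). Stard4, a cholesterol carrier, changed by -0.64 ± 0.08, and the mevalonate enzymes Mvd and Mvk by -0.63 ± 0.10 and -0.43 ± 0.09. Sqle, which oxidizes squalene, and Fdft1, which makes it, changed by -0.48 ± 0.07 and -0.38 ± 0.07.

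Several other genes among the 15 lowest act at the borders of the brain. Slc22a6 and Slc22a8, organic anion transporters, had 7.14 ± 0.06 and 8.73 ± 0.10 in injured arrays, against 7.83 ± 0.12 and 9.37 ± 0.11 in Vehicle arrays (SD, n = 5 each), with log2 fold changes of -0.70 ± 0.07 and -0.65 ± 0.07 (SE). Ogn, a small proteoglycan of connective tissue, changed by -0.65 ± 0.10. The choroid plexus marker Sostdc1, which was not among the 15 lowest, changed by -0.59 ± 0.09. Choroid plexus and ependyma markers as a list averaged 7.77 to 7.96 in injured arrays and 7.80 to 8.12 in Vehicle arrays, and markers of meninges, fibroblasts and pericytes 8.75 to 8.97 in injured arrays and 8.93 to 9.02 in Vehicle arrays; the part of unequal dissection in these values was not tested. Markers of cerebellum, hindbrain, thalamus and midbrain, olfactory bulb and pituitary had 0 of 16, 0 of 22, 0 of 18, 0 of 7 and 0 of 6 members called by limma, and 5, 2, 1, 2 and 1 at an unadjusted p under 0.05. Over all genes, 4272 of 19937 had such a p. In injured arrays these 5 lists averaged 7.49 to 8.19, 6.14 to 6.43, 7.71 to 7.84, 7.63 to 7.97 and 5.59 to 5.86. In Vehicle arrays they averaged 7.55 to 7.75, 6.01 to 6.28, 7.54 to 7.91, 7.62 to 8.30 and 5.80 to 5.97. The part of unequal dissection was not tested here either. With the block 1 cerebellar, 1 olfactory bulb and 1 pituitary marker were lower, namely Calb1 at -0.23 (adjusted p = 0.0484), Cdhr1 at -0.59 (adjusted p = 0.0375) and Cga at -0.38 (adjusted p = 0.0105). The fit with the block called 1168 of all 19937 genes lower. Hmcn1, an extracellular matrix protein, was covered by 77 probe sets, of which 59 were called lower and 0 higher, with changes of -0.88 to -0.03.

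**Figure D3:**
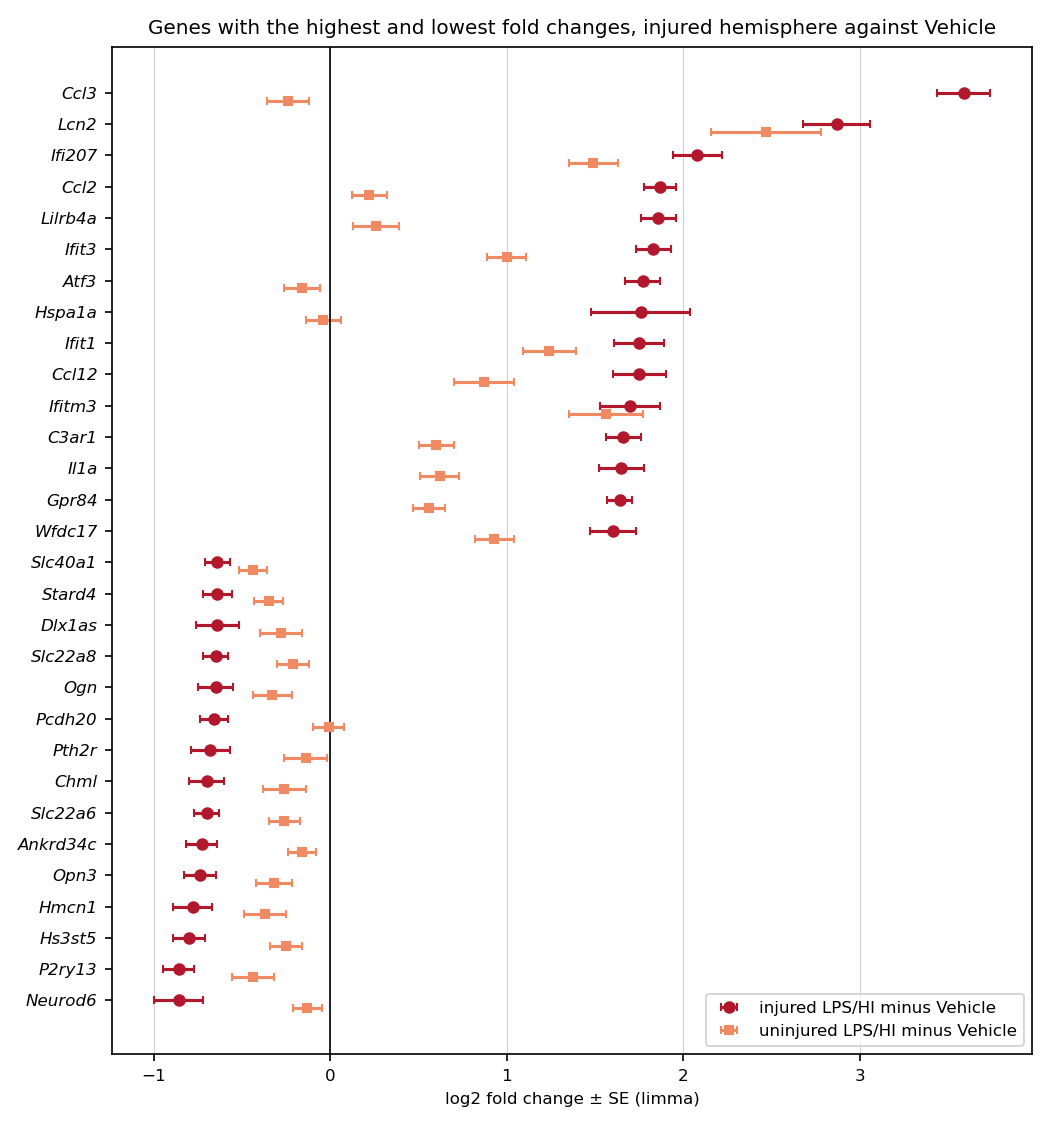
Log2 fold change (horizontal axis, ± SE from limma) of the 15 genes with the highest and the 15 with the lowest values among called genes whose groups did not overlap, for injured LPS/HI minus Vehicle (circles) and uninjured LPS/HI minus Vehicle (squares), which share the Vehicle arrays. Ccl3, Ccl2, Lilrb4a, Atf3 and Hspa1a are near 0 in the uninjured hemisphere, while Lcn2 and Ifitm3 are close to their injured values.

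The uninjured hemisphere of the same group, which had LPS and HI by the labels but no injury, shows which genes differed between hemispheres. Against Vehicle brains, 87 genes passed limma's test in it (0.436%), 82 higher (0.411%) and 5 lower (0.0251%), with 51 in all without Vehicle replicate 4 and 52 with Xist as a covariate. The direct test of injured against uninjured called 596 genes (2.99%), 434 higher (2.18%) and 162 lower (0.813%), or 303 higher and 200 lower with each array centred on its median. Arrays with the same replicate number moved together in the hemispheres, and with that number as a block the test called 1256 higher and 776 lower. Injured replicate 3 carried Y-linked RNA, at a mean of 8.01, and uninjured replicate 3 did not, at 4.27, while both had high Xist, at 11.23 and 11.63. The labels do not say whether animals were pooled, but these 2 arrays cannot both hold RNA of 1 and the same animal alone. With both of them left out the blocked test called 1490 higher and 971 lower. Without the block the total of 596 fell to 285, 293 and 377 without injured replicate 1, 2 and 4, and to 364, 365 and 301 without uninjured replicate 1, 2 and 4. These comparisons share arrays, so their values are given side by side.

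Chemokines, stress genes and cortical neuron genes differed between the hemispheres. Of the 31 chemokines and cytokines, 15 were higher in the injured than in the uninjured hemisphere, and 2 were higher in the uninjured hemisphere than in Vehicle brains. Ccl3 had 7.24, 7.14, 7.11, 7.12 and 6.93 in uninjured arrays, all below every injured array, a difference of 3.83 ± 0.13 between hemispheres (adjusted p = 1.24e-09). Of the 31 genes of integrated and unfolded protein stress, 9 were higher in the injured than in the uninjured hemisphere, and 0 were called in the uninjured hemisphere against Vehicle by limma. Atf3 differed by 1.93 ± 0.11, Emp1 by 1.79 ± 0.12, Ccl2 by 1.65 ± 0.09, Lilrb4a by 1.60 ± 0.13, Gadd45b by 1.49 ± 0.14 and Cd14 by 1.20 ± 0.15. Hspa1a had 7.93 ± 0.06 in uninjured arrays (SD, n = 5) and was 3.48-fold higher in the injured hemisphere (adjusted p = 0.00342). Neurod6, Pcdh20, Tafa1 and Htr2a were lower in the injured than in the uninjured hemisphere, at -0.73 ± 0.14, -0.66 ± 0.09, -0.62 ± 0.09 and -0.58 ± 0.07. Of the 23 cortical and hippocampal neuron markers, 6 were lower and 1 higher in this test, and 14 were lower and 1 higher with the block.

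In part, interferon, complement and acute phase genes were higher than Vehicle in the uninjured hemisphere as well. In that hemisphere 7 of the 16 complement genes and 4 of the 22 acute phase genes were higher than in Vehicle brains. In the injured against the uninjured hemisphere 2 complement genes were higher, 4 with the block, and 3 acute phase genes, 5 with the block. C3ar1 and C5ar1 were the 2 complement genes, at 1.05 ± 0.09 and 0.65 ± 0.11 (adjusted p = 4.37e-05 and 0.00581). Of the 33 interferon genes, 13 were higher in the uninjured hemisphere than in Vehicle brains, and 4 were higher in the injured than in the uninjured hemisphere, 11 with the block. Ifit3 lay between, with 7.32, 7.58, 7.51, 7.03 and 6.98 in uninjured arrays, and was higher in the injured hemisphere by 0.83 ± 0.13 (adjusted p = 0.0037). Ifit1 and Irgm1 differed by 0.51 ± 0.14 and 0.53 ± 0.14, with adjusted p = 0.0661 and 0.0676, and were called with the block, at 0.00373 and 0.00177. Lcn2 had 8.23, 7.67, 9.77, 7.54 and 8.49 in uninjured arrays, overlapping the injured arrays. Its difference between hemispheres was 0.41 ± 0.35 (adjusted p = 0.691), with a 95% interval of 0.08 to 0.73 in the fit with the block. Without both arrays numbered 3, Lcn2 was called in the fit with the block, at 0.62 ± 0.06 (adjusted p = 0.00232). The intervals with the block and all arrays were 0.02 to 0.24 for Rtp4, -0.03 to 0.20 for C1qb and -0.22 to 0.20 for Lbp, and these 3 genes were called neither with all arrays nor without those numbered 3. In brains taken 6 h after LPS without HI, described without a test because the time differs, Lcn2 had 9.77 ± 0.59, Irgm1 8.91 ± 0.26, Cxcl10 7.12 ± 0.75 and Ccl3 7.04 ± 0.24 (SD, n = 5).

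The same contrast was measured in a separate set of 10 arrays from mice given IDR-1018, an innate defence regulator peptide, in place of vehicle. In that set 1171 genes passed limma's test (5.87%), with 702 higher in the injured hemisphere (3.52%) and 469 lower (2.35%), or 523 higher and 739 lower with each array centred on its median. The total of 1171 fell to 705, 746, 731 and 752 without IDR-1018 replicate 1, 2, 3 and 4. Of the 887 genes higher without the peptide, 540 were also called higher with it, which is 60.9% of the first list and 76.9% of the second. Of the 776 lower genes, 329 were also called lower, 42.4% of the first list and 70.1% of the second, and 0 genes were called in opposite directions. Among changes over 1.5-fold, 192 of 203 higher genes and 22 of 26 lower genes were called with the peptide too. Ccl3 had 11.13 ± 0.60 in injured arrays with the peptide and 7.14 ± 0.21 with the peptide alone (SD, n = 5 each), a change of 3.98 ± 0.23 (SE), against 3.59 ± 0.15 without it. Lcn2 changed by 2.75 ± 0.18 with the peptide and 2.87 ± 0.19 without it, P2ry13 by -0.88 ± 0.13 and -0.86 ± 0.09, and Neurod6 by -0.75 ± 0.16 and -0.86 ± 0.14. The test of the difference between these effects called 0 of 19937 genes by limma, with 287 at an unadjusted p under 0.05. The smallest p-value was that of Prame, whose effect differed by 0.38 ± 0.11 (adjusted p = 1.00).

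**Figure D4:**
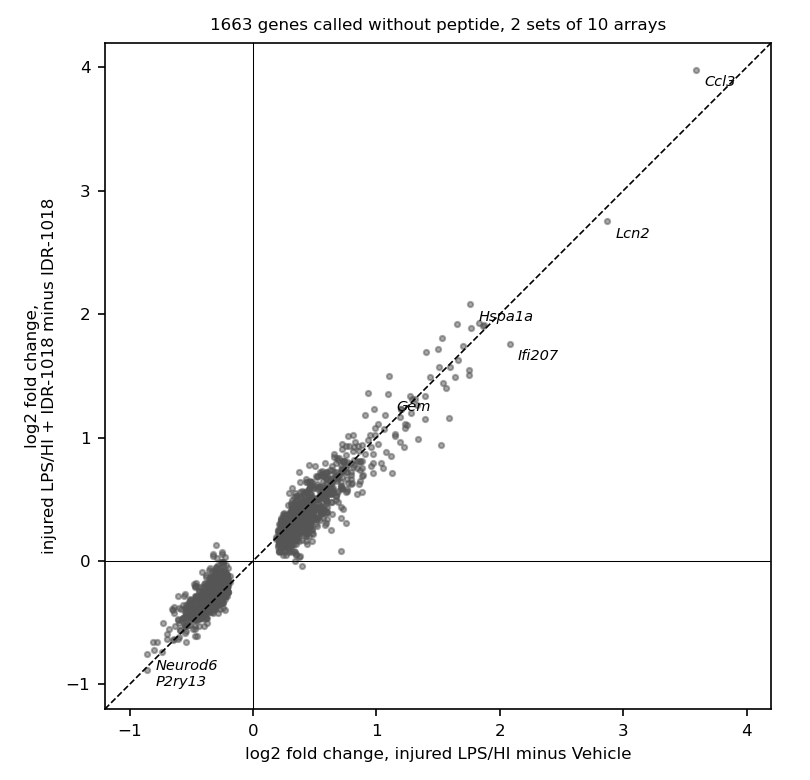
Log2 fold change of each of the 1663 genes called in injured LPS/HI against Vehicle (horizontal axis) and its value in injured LPS/HI + IDR-1018 against IDR-1018 (vertical axis), from separate sets of 10 arrays; the dashed line marks equal values. Points lie along the line from Neurod6 and P2ry13 at the lower left to Lcn2 and Ccl3 at the upper right.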

How the data were processed

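Total RNA from postnatal day 9 mouse brain was hybridised to Affymetrix arrays, per the labels' protocols. The authors deposited log2 values per probe set, made with RMA in the affy package according to the submitters' processing notes, which give no versions and no batches. Probe sets were named from the platform annotation, and the 13120 without a single symbol were left out of the gene tests. For each gene the probe set of highest mean signal across the 40 arrays was kept. Groups were taken from the sample titles.

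Each comparison was fitted with limma 3.58.1 in R 4.3.3 (with data.table, version 1.17.8) to its own groups, with p-values adjusted by the Benjamini-Hochberg method over 19937 genes and a gene called at an adjusted p under 0.05; the fit was tested on simulated data. The effects with and without IDR-1018 were compared by an interaction contrast. Same-numbered arrays of the injured and Vehicle groups correlated in their deviations from the group means at 0.116 to 0.443, within -0.368 to 0.443 over all pairs. Injured arrays 1, 4 and 5 correlated best with the Vehicle array of their own number, and 2 and 3 did not. Same-numbered arrays of the injured and uninjured hemispheres correlated at 0.392 to 0.646, and every injured array correlated best with its own number. A fit with the replicate number as a block was therefore also run. The pairing is read from the data, since the labels do not state it, and is less clear between injured and Vehicle arrays. Genes were named by rule: the 15 highest and 15 lowest called genes whose groups did not overlap, and in each list up to 8 called genes by size, or up to 4 where fewer than 6 were called, with 2 genes where none was; the 3 smallest interaction p-values were listed too. Of 218 called genes so named, 172 were called in every fit that left out 1 array. The comparison, the gene lists and the named genes were chosen with earlier results of these data known. Alternatives were a fit to all 8 groups, a mean log2 signal of at least 6, the mean of a gene's probe sets, centring on array medians, a further quantile normalization, a trended and robust prior, the Xist level as a covariate, the replicate block, and leaving out each array.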

Additional observations from a re-analysis of the deposited data

Results flagged for a closer look

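Among 344 groups of 5 arrays of the genes named and called in every fit that left out 1 array, 17 groups had 1 array far from the rest by Dixon's test, and chance marks about 1 in 20 groups. In the Vehicle group, replicate 5 was the array apart for C3ar1 at 7.18, Chml at 8.83, Il1a at 5.10, Nfkbiz at 6.55 and Rgs5 at 10.67, all below the other Vehicle arrays, and for Serpina3n at 9.56, above them. Vehicle replicate 3 was low for Stc2 at 6.67 and Tap1 at 6.66, Vehicle replicate 4 was low for Tlr7 at 5.96, and Vehicle replicate 2 was high for Ccl12 at 5.54. In the injured group, replicate 5 was high for C1qa at 9.18 and low for Grin3a at 9.98, and replicate 3, the array with both Xist and Y-linked RNA, was low for Htr2a at 9.02 and Slc2a3 at 10.99. Injured replicate 4 was high for Kcnv1 at 10.09, replicate 2 for Ppp1r15a at 7.98 and replicate 1 for Rsad2 at 7.48.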

How the results depend on the processing

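None of the 218 called genes so named changed sign between the injured hemisphere and Vehicle brains under any alternative that tested them. A change of sign was not recorded for named genes without a call. The 0 calls for the effect of IDR-1018 on this contrast stood under all the alternatives. The count of 1663 genes for injured against Vehicle became 917 with the Xist level as a covariate and 964 to 1798 with 1 array left out; the replicate block gave 2290. The count of 229 genes over 1.5-fold stayed between 211 and 258 with 1 array left out, and 198 of the 203 higher and 26 of the 26 lower ones were called in every such fit. For uninjured against Vehicle, 87 became 52 with the Xist covariate and 51 to 95 with 1 array left out. For injured against uninjured, 596 became 1431 when all 8 groups were fitted together, 2032 with the replicate block, 2461 with the block and both arrays numbered 3 left out (chosen after seeing the data) and 285 to 641 with 1 array left out. With IDR-1018, 1171 became 1909 when all 8 groups were fitted together, 498 with the replicate block and 705 to 1196 with 1 array left out; there the same-numbered arrays did not move together, with correlations of -0.43 to 0.218, and share only a number. The causes were not tested. Between injured and Vehicle the block ended the calls of 4 named genes and gave a call to Calb1, Cdhr1, Cga and Dlx2, and it changed no other named gene's call there. The covariate ended the calls of Bcl3, Tnfaip2, Esm1, Hsd17b7, Rgs5, Itga4, Pdgfra and Pde10a, and the fit to all 8 groups those of Gjb6 and Rgs5, among genes called in every fit that left out 1 array. With 5 arrays a group, the median half-width of an unadjusted 95% interval was 0.17 on the log2 scale. The adjusted threshold is stricter, so a gene of that precision needed a difference above 0.17 to be called.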

Other observations

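Among genes outside the lists, Wfdc17, a small secreted protein of macrophages, had signals of 7.74, 7.02, 7.42, 7.13 and 7.45 in injured arrays, against 5.73, 5.77, 6.06, 5.72 and 5.49 in Vehicle arrays, a 3.03-fold difference (adjusted p = 3.42e-06). Opn3, an opsin expressed in brain, had 8.80, 8.69, 8.63, 8.75 and 8.40 in injured arrays, against 9.54, 9.38, 9.51, 9.33 and 9.18 in Vehicle arrays, a log2 fold change of -0.74 ± 0.09 (SE, adjusted p = 0.000139). Sult1a1, a sulphotransferase of the glucocorticoid list, was higher than Vehicle by 0.76 ± 0.12 in the injured and by 0.98 in the uninjured hemisphere.

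When all 34760 probe sets were tested together, 748 were higher and 549 lower in the injured hemisphere, and the 13120 without a single gene symbol held 153 of the higher and 48 of the lower ones. Ribosomal protein genes averaged 10.77, 10.80, 11.06, 10.66 and 11.03 in injured arrays, against 10.72, 10.73, 10.70, 10.74 and 10.90 in Vehicle arrays. The 2 annotated probe sets of Socs3, the feedback inhibitor of STAT3, differed, with log2 fold changes of 0.02 and 0.44.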
